A study of Mus musculus with 15 samples.

Results

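The clustered protocadherins are a family of neuronal adhesion genes that lie side by side in the alpha, beta and gamma clusters. They were picked from the expression table by symbol, as protein-coding genes named Pcdha or Pcdhac, Pcdhb, and Pcdhga, Pcdhgb or Pcdhgc followed by a number. This gave 57 of the 19475 genes in the table, with 14 in the alpha cluster, 22 in the beta cluster and 21 in the gamma cluster. The values came from RNA-Seq of brains of 15 mouse embryos at E16.5, late in gestation. They comprised 5 WT, 5 Tbr1+/K228E and 5 Tbr1K228E/K228E embryos, each genotype with 3 females and 2 males. The mice were on a C57BL/6J background. The K228E allele is a knock-in point mutation in exon 1 of Tbr1, a T-box transcription factor of cortical neurons, and the neomycin cassette of the targeted allele had been removed with protamine-Cre, a germline Cre. The mutation is therefore constitutive, present in every cell of the mutant embryos. The labels name brain as the tissue, and the study's text also names forebrain. The comparisons address whether the transcript levels of these adhesion genes differ with 1 or 2 copies of the mutant allele.

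Clustered protocadherins are cadherin-like cell-surface proteins that bind the same isoform on a facing membrane, and each neuron displays a small combination of them. The combination gives a neuron an identity that its own branches recognize, which is known to underlie self-avoidance of dendrites and axons. Each alpha and gamma gene begins with its own promoter and large variable exon, which codes for the extracellular and transmembrane parts, and is spliced to constant exons shared by the whole cluster, which code for the end of the cytoplasmic tail. Beta genes are mostly single exons with no constant part. The alternate isoforms (Pcdha1 to Pcdha12, the beta genes, and the gamma A and gamma B genes) are chosen more or less at random in each neuron, through promoter DNA methylation and looping by CTCF and cohesin. The 5 C-type isoforms (Pcdhac1, Pcdhac2, Pcdhgc3, Pcdhgc4 and Pcdhgc5) are expressed more uniformly within particular neuron types. In a sample of brain tissue only the sum over many cells is seen, so fewer cells that express a gene and less RNA per cell cannot be told apart.

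All 57 genes lie on the forward strand of mouse chromosome 18 in the GRCm38 build. The alpha cluster spans positions 36930184 to 37187661, the beta cluster 37264938 to 37524479 and the gamma cluster 37661793 to 37841873, each including the exons. Every alpha gene had 48.6% to 54.9% of the bases of its longest coding transcript in exons that overlap another alpha gene. In the gamma cluster the share was 41.7% to 45.5%. Reads from these constant exons cannot be tied to a single gene, so Salmon, the quantifier used by the authors, divides them by its model, and levels of single alpha and gamma isoforms carry that uncertainty. Of the beta genes only the neighbours Pcdhb21 and Pcdhb22 overlapped, by 455 bases. The kit did not keep strand. Pcdhgb8 was left out, since it is annotated as a polymorphic pseudogene, and 2 genes carry the symbol Pcdha11 in the annotation, of which ENSMUSG00000007440 sits at the place of Pcdha10 and is called so here.

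The deposited values are gene counts divided by size factors, called normalized values below. Their sum per embryo was 30535909 to 31768508, and the spacing of the lowest values put the underlying depth at about 26300000 to 38000000 assigned read pairs per embryo. Tbr1 itself, the mutated gene, had normalized values of 2097 to 4871 in WT, 4738 to 8543 in Tbr1+/K228E and 7148 to 16015 in Tbr1K228E/K228E embryos. Its log2 fold change was 1.69 ± 0.23 (SE) in Tbr1K228E/K228E against WT (adjusted p = 0.00437, limma), with no overlap between the embryos of these genotypes. Against WT the Tbr1+/K228E difference was 0.85 ± 0.23 (limma, unadjusted p = 0.00225, adjusted p = 0.999), with an exact two-sided permutation p of 0.0159. The embryos differed in the levels of genes that mark brain regions and membranes, and whether the tissue taken differed was not tested. The summed value of the 16 Hox genes measured, which mark hindbrain and spinal cord, ranged from 0 to 3958, and it was under 100 in 2 WT, 4 Tbr1+/K228E and 3 Tbr1K228E/K228E embryos. In these embryos the mean log2(value + 1) of Tph2, Slc6a4 and Fev, genes of hindbrain raphe neurons, was not uniformly low. It was 3.45 and 5.89 in WT replicates 3 and 5, and 2.71, 6.50, 2.65 and 6.06 in Tbr1+/K228E replicates 2 to 5. In Tbr1K228E/K228E replicates 3 to 5 it was 2.65, 6.97 and 5.95. A Hox sum under 100 therefore does not show that hindbrain was absent. The summed value of the 11 meningeal genes ranged from 627 to 34610, and that of the 4 forebrain genes (Emx1, Neurod2, Neurod6 and Bcl11b) from 12927 to 29768. The pan-neuronal genes varied less, from 223224 to 260066. The forebrain sums of the genotypes overlapped, with medians of 20045, 22554 and 20476 in WT, Tbr1+/K228E and Tbr1K228E/K228E embryos.

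To compare one gene with another, normalized values were divided by the length in kb of the longest coding transcript. On this scale the gamma cluster made up most of the clustered protocadherin RNA, with 63.1% ± 1.6 (SD, n = 5) of the summed level of the 57 genes in WT embryos, against 19.1% ± 1.5 for alpha and 17.9% ± 0.57 for beta. The shares were 64.2% ± 1.4, 18.6% ± 0.71 and 17.2% ± 0.76 in Tbr1+/K228E embryos, and 62.8% ± 1.9, 19.4% ± 0.89 and 17.8% ± 1.4 in Tbr1K228E/K228E embryos. The ranges of the genotypes overlapped for each cluster.

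The gamma A and gamma B genes held 38.7% ± 1.2 of the level per length of all 57 genes in WT, and the highest single gamma genes were 2 C-type isoforms at the downstream end of the cluster. Pcdhgc3, a C-type isoform known to promote dendrite branching in cortical neurons, had the highest level per length of all 57 genes, at 1300 ± 93 per kb in WT. It alone held 25.2% ± 2.0 of the gamma level per length. Pcdhgc4, the isoform needed for the survival of many interneurons, followed at 602 ± 132 per kb and held 11.6% ± 2.2 of the gamma level. Pcdhgc3 was above Pcdhgc4 in every embryo, and the ratio of Pcdhgc3 to Pcdhgc4 per length ranged from 1.49 to 3.79 over the 15 embryos. Pcdhgc5, which is known to bind GABA-A receptor subunits, was near the bottom of the cluster at 90.4 ± 19.0 per kb. The lowest gamma gene was Pcdhgb4, at 87.9 ± 10.3 per kb, and the difference from Pcdhgc5 was less than the spread between embryos. The gamma A genes had a median of 173 per kb and the gamma B genes a median of 123 per kb, and the highest of each, Pcdhga11 at 345 and Pcdhgb6 at 365, lay towards the downstream end of the cluster.

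In the alpha cluster the highest level per length was that of Pcdhac2, the isoform required for the tiling of serotonergic axons, at 240 ± 39 per kb. It held 15.3% ± 1.2 of the alpha level in WT. The alternate isoform Pcdha5 came next at 166 ± 41 per kb, within the spread of its neighbours in that order, Pcdha12 at 152 ± 11 and Pcdha9 at 143 ± 32. The lowest were Pcdha8, at 10.3 ± 4.7 per kb, and Pcdha1, at 29.1 ± 9.0. The other C-type isoform, Pcdhac1, was close to Pcdha1 at 33.3 ± 3.5 per kb, so the C-type isoforms stood at opposite ends of the cluster's range.

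The beta genes had a median of 54.3 per kb in WT, below the medians of 131 for alpha and 164 for gamma. The highest were Pcdhb20 at 159 ± 7.0, Pcdhb7 at 146 ± 15 and Pcdhb17 at 146 ± 9.7 per kb. Pcdhb20 was above both others in every WT embryo, though by little in WT replicate 4, at 168.1 against 167.6 for Pcdhb7. Pcdhb7 and Pcdhb17 did not differ beyond their spread. The lowest was Pcdhb1, the first gene of the cluster, whose normalized value was at most 3.34 in any embryo and 0 in 4 of the 15. It was the only member below the filter of a mean of 5, so 56 members entered the tests. Pcdhb14 was the next lowest, at 24.7 ± 3.6 per kb, although its value depends on an unusually long annotated transcript of 8695 bases.

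**Figure D1:**
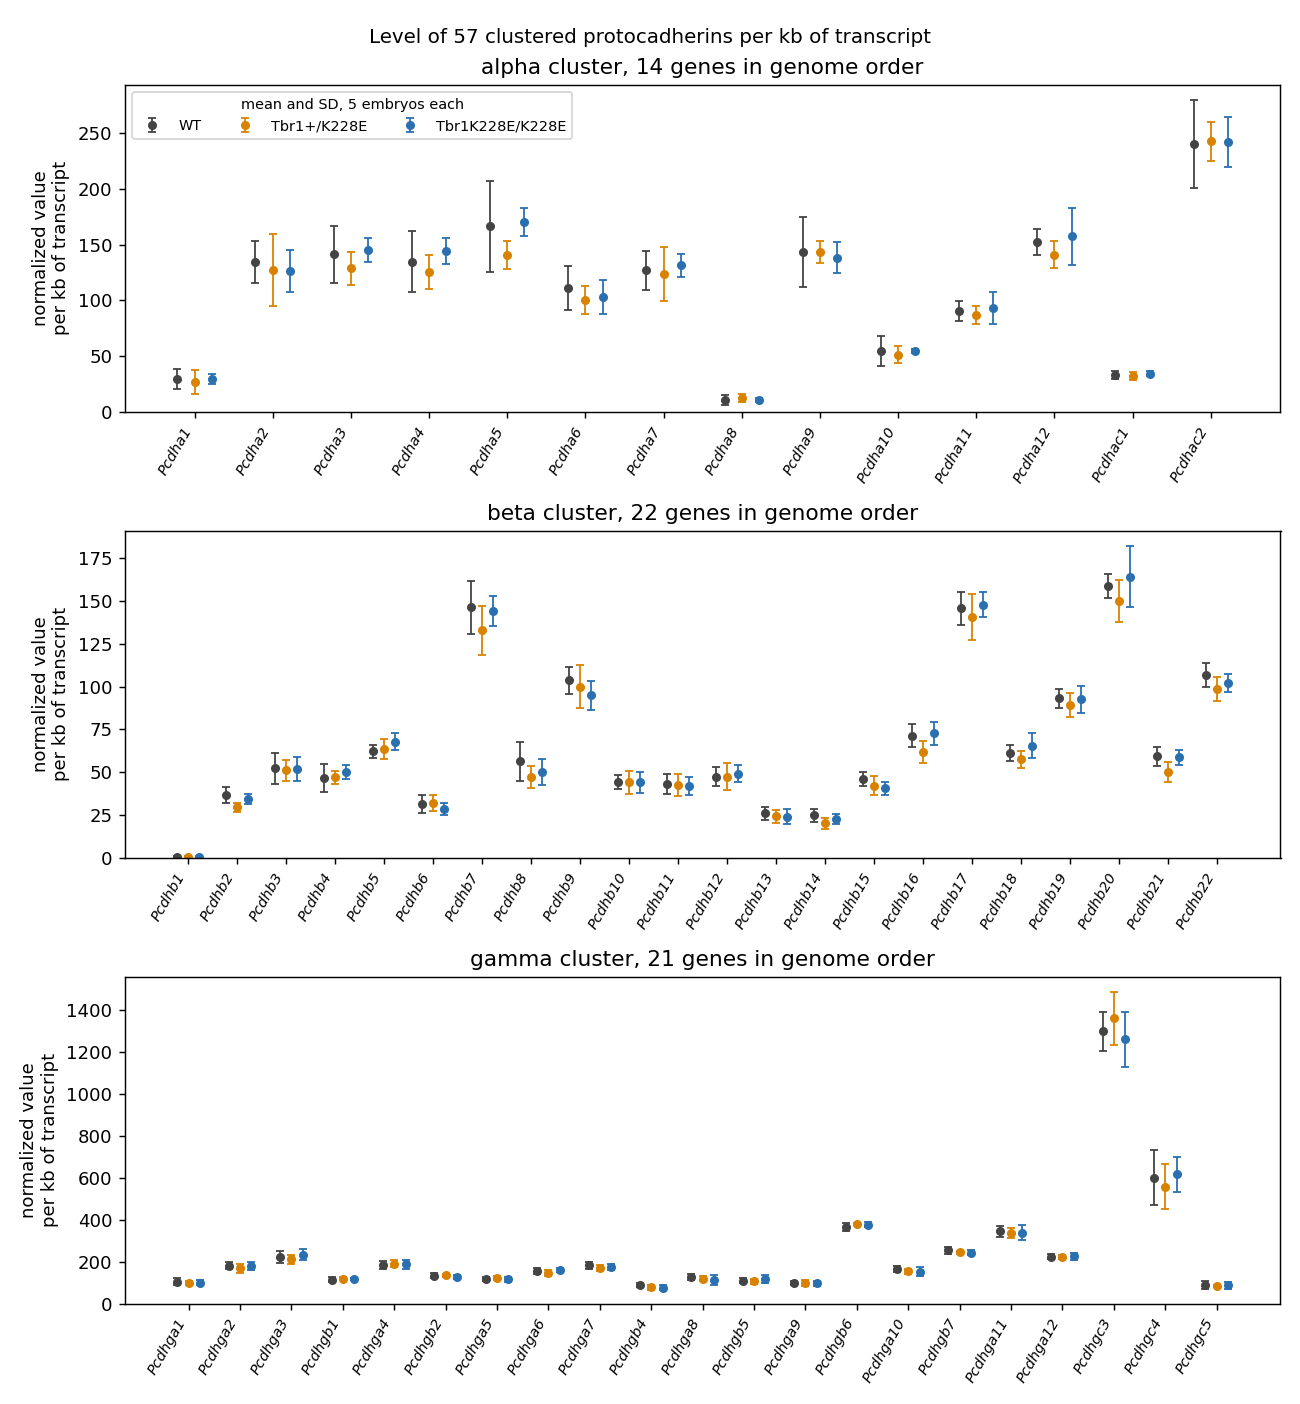
Normalized value per kb of longest coding transcript (vertical axes, different scale in each panel) for the 57 genes in genome order (horizontal axes), as mean and SD of 5 embryos in each genotype. The profile along each cluster had the same shape in the 3 genotypes, with Pcdhac2, Pcdhb7, Pcdhb17, Pcdhb20, Pcdhgc3 and Pcdhgc4 standing out, and the SD bars of the genotypes overlapped for most genes.

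The summed normalized value of each cluster was similar in the 3 genotypes. The alpha sum was 7945, 7350, 7974, 10217 and 8963 in the WT embryos, 8736, 7418, 7942, 8301 and 7754 in the Tbr1+/K228E embryos, and 8161, 8650, 8905, 9082 and 8008 in the Tbr1K228E/K228E embryos. The highest was WT replicate 4, and the genotypes overlapped. The beta sum averaged 6302 ± 364 (SD, n = 5) in WT, 5883 ± 398 in Tbr1+/K228E and 6239 ± 405 in Tbr1K228E/K228E embryos. Of the Tbr1+/K228E embryos 4 lay below the lowest WT embryo, at 5412, 6000, 5991 and 5584 against 6085, and the remaining one was at 6430. The gamma sum was the steadiest, at 24573 ± 911, 24279 ± 333 and 24300 ± 1131. These sums are given as a description, without a test.

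**Figure D2:**
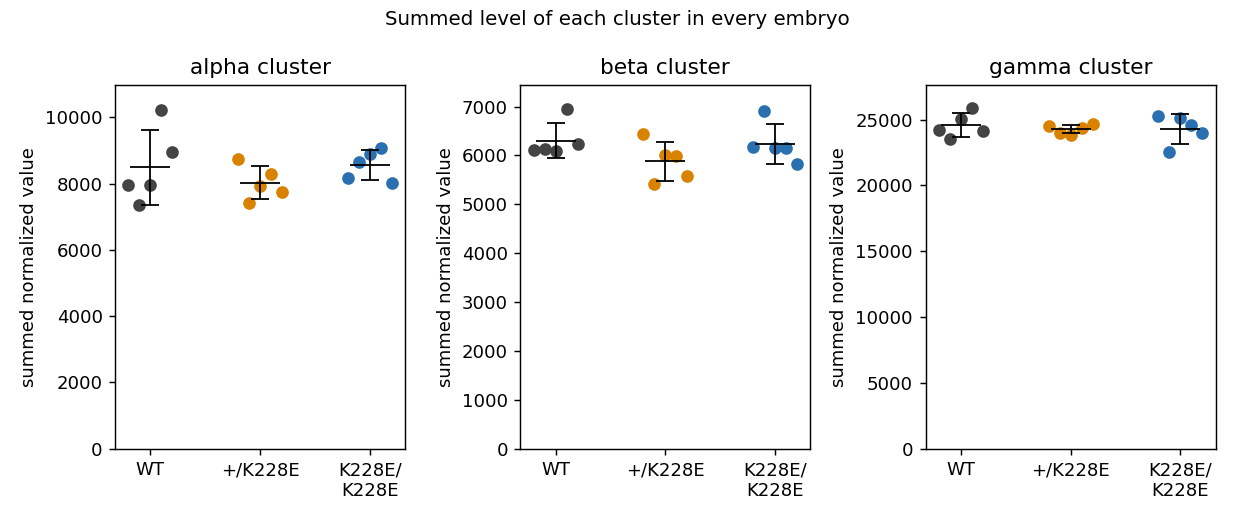
Summed normalized value of the alpha, beta and gamma genes (vertical axes from 0) in every embryo, by genotype; points are embryos, and the black bars give the mean and SD of 5. The genotypes overlapped in all 3 clusters, and WT replicate 4 was the highest WT embryo in each.

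Heterozygous embryos were compared with WT to ask what 1 mutant allele does. Most members had slightly lower levels in Tbr1+/K228E than in WT embryos, and none passed the test. The log2 fold change was below 0 for 43 of 56 members, against 51.2% of all 16507 genes tested, with a median of -0.08 for alpha, -0.08 for beta and -0.05 for gamma members against 0.00 over all genes. With genotype means removed, the median over the members of each cluster varied between embryos. Its SD was 0.14 for alpha, 0.11 for beta and 0.07 for gamma on the log2 scale. Members also moved together across embryos, as given below, so the 56 are not separate observations. No member reached an adjusted p of 0.05 (limma on log2(value + 1), Benjamini-Hochberg over all genes), where 0% of all genes did. At an unadjusted p under 0.05 were 4 members, all beta and all lower, against 1.01% of genes lower and 0.775% higher. No member was without overlap between the embryos of these genotypes, against 0.26% of all genes.

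These 4 beta genes were Pcdhb2, Pcdhb14, Pcdhb16 and Pcdhb21, each a single adhesion isoform chosen at random in a subset of neurons. Pcdhb2 had normalized values of 90.1, 108, 86.8, 112 and 116 in WT, 78.1, 91.1, 89.9, 72.2 and 81.3 in Tbr1+/K228E, and 92.3, 105, 105, 84.5 and 94.8 in Tbr1K228E/K228E embryos. Of the heterozygous embryos 3 lay below every WT embryo. The log2 fold change of Pcdhb2 against WT was -0.31 ± 0.12 (SE), with unadjusted p = 0.0198, adjusted p = 0.999 and an exact two-sided permutation p of 0.0397.

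Pcdhb21 had values of 259, 255, 267, 294 and 317 in WT, 235, 220, 209, 283 and 231 in Tbr1+/K228E, and 264, 299, 286, 284 and 245 in Tbr1K228E/K228E embryos. Here 4 of the heterozygous embryos were below every WT embryo, and the homozygous embryos overlapped the WT range, with 1 of them, at 245, below the lowest WT embryo. The log2 fold change in heterozygous embryos was -0.24 ± 0.09 (SE), with unadjusted p = 0.0205, adjusted p = 0.999 and an exact permutation p of 0.0397. Of its transcript, 9.67% overlaps Pcdhb22, whose difference was -0.12 ± 0.06 in the same comparison with an exact permutation p of 0.0794.

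Pcdhb14 had values of 183, 189, 254, 241 and 207 in WT, 217, 139, 185, 175 and 152 in Tbr1+/K228E, and 212, 223, 198, 194 and 160 in Tbr1K228E/K228E embryos. Its heterozygous difference was -0.31 ± 0.13 (SE), with unadjusted p = 0.0349 and an exact permutation p of 0.0794. Pcdhb16 had values of 327, 372, 353, 417 and 395 in WT, 348, 328, 331, 339 and 265 in Tbr1+/K228E, and 372, 434, 364, 384 and 343 in Tbr1K228E/K228E embryos. In Pcdhb16 the fifth heterozygous embryo was far below the others, and its difference was -0.21 ± 0.09 (SE), with unadjusted p = 0.0357 and an exact permutation p of 0.0556. The count of 4 genes fell to 2 without WT replicate 4, WT replicate 5 or Tbr1+/K228E replicate 5, and to 2 with the forebrain marker level as a covariate.

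**Figure D3:**
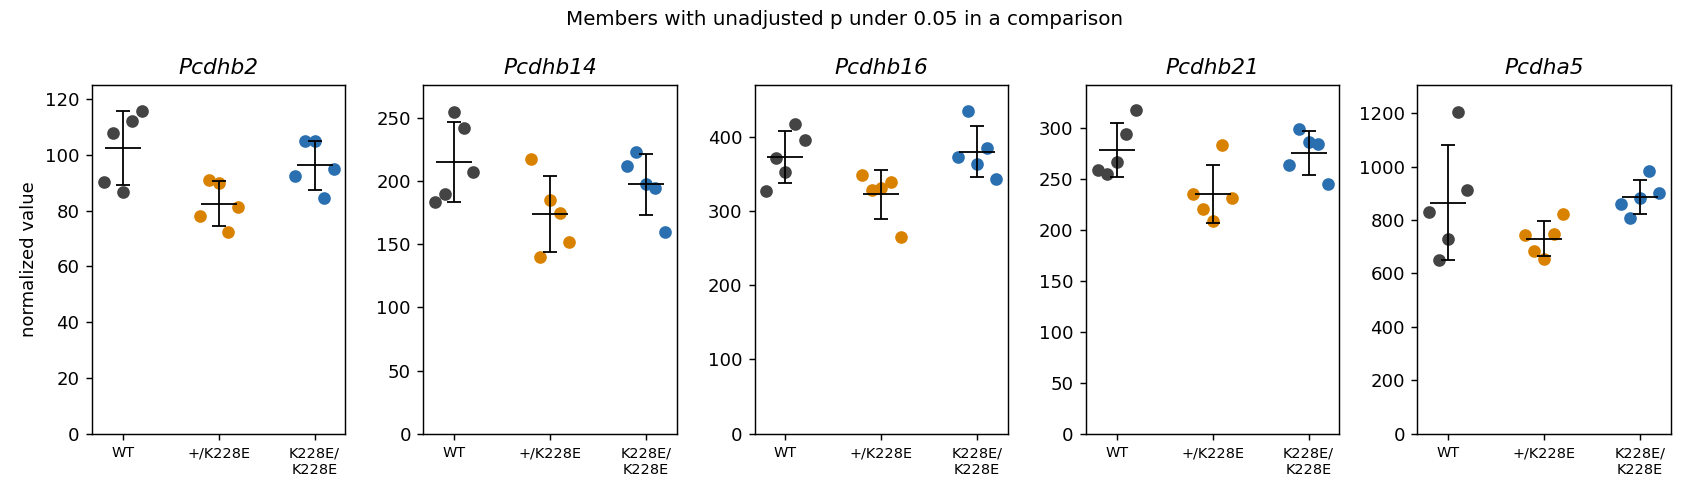
Normalized value (vertical axes from 0) of the 5 genes with an unadjusted p under 0.05 in any comparison, by genotype; points are embryos, and the black bars give the mean and SD of 5. In the 4 beta genes most Tbr1+/K228E embryos lay low while Tbr1K228E/K228E and WT embryos overlapped, and in Pcdha5 the WT embryos covered both other genotypes.

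Homozygous embryos were compared with WT to ask what 2 mutant alleles do. Here the members were distributed around 0, with 30 of 56 lower, against 51.3% of all genes. The median log2 fold change was 0.04 for alpha, -0.01 for beta and -0.03 for gamma members. No member passed the adjusted threshold, against 0.127% of all genes, none had an unadjusted p under 0.05, against 1.76% of genes lower and 1.48% higher, and none was without overlap, against 0.594%. The smallest unadjusted p was that of Pcdhgb4, a gamma B isoform, with values of 438, 335, 402, 462 and 414 in WT and 346, 269, 352, 408 and 385 in Tbr1K228E/K228E embryos. Its log2 fold change was -0.23 ± 0.13 (SE, unadjusted p = 0.0920, exact permutation p = 0.119), within the spread between embryos. The next were Pcdhb15 at -0.17 ± 0.11, Pcdhb5 at 0.13 ± 0.08, Pcdhb9 at -0.13 ± 0.09 and Pcdhga8 at -0.17 ± 0.12. The 95% interval of the difference lay within a 1.5-fold change in either direction for 54 of 56 members, beside 12472 of all 16507 genes tested. The exceptions were the low alpha genes Pcdha1 and Pcdha8. In Tbr1+/K228E against WT the interval lay within this bound for 53 members, beside 12561 of all 16507 genes. Pcdhb14 was the further exception, at -0.60 to -0.03.

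The mutants were also compared with each other. No member passed the adjusted threshold in Tbr1K228E/K228E against Tbr1+/K228E embryos, where 0.0788% of all genes did, and none was without overlap, against 0.878%. A log2 fold change below 0 was seen for 20 of 56 members, against 49.8% of all genes, and the medians were 0.10 for alpha, 0.08 for beta and -0.01 for gamma members. Each median was smaller in size than the SD between embryos given above, and the members are not separate observations here either. At an unadjusted p under 0.05 were 3 members, all higher in homozygous embryos, against 1.71% of genes higher and 1.58% lower. Of these, Pcdhb16 differed by 0.24 ± 0.09 (SE, exact permutation p = 0.0159) and Pcdhb21 by 0.23 ± 0.09 (exact permutation p = 0.0397). The heterozygous embryos are the same ones as in the comparison with WT, so these values are not a second observation of the beta genes.

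The third was Pcdha5, an alternate alpha isoform. Its values were 830, 651, 729, 1204 and 913 in WT, 744, 683, 654, 748 and 822 in Tbr1+/K228E, and 861, 807, 883, 983 and 900 in Tbr1K228E/K228E embryos. Of the homozygous embryos 4 were above every heterozygous embryo, while the WT embryos included the highest and the lowest of the 15. The difference between the mutants was 0.28 ± 0.13 (SE), with unadjusted p = 0.0411, adjusted p = 0.996 and an exact permutation p of 0.0159. Pcdhb18, at 0.19 ± 0.09, and Pcdhga6, at 0.15 ± 0.07, came next and had unadjusted p of 0.0586 and 0.0591. The count of 3 rose to 5 without Tbr1+/K228E replicate 1 and fell to 1 without Tbr1+/K228E replicate 2 or Tbr1K228E/K228E replicate 2.

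**Figure D4:**
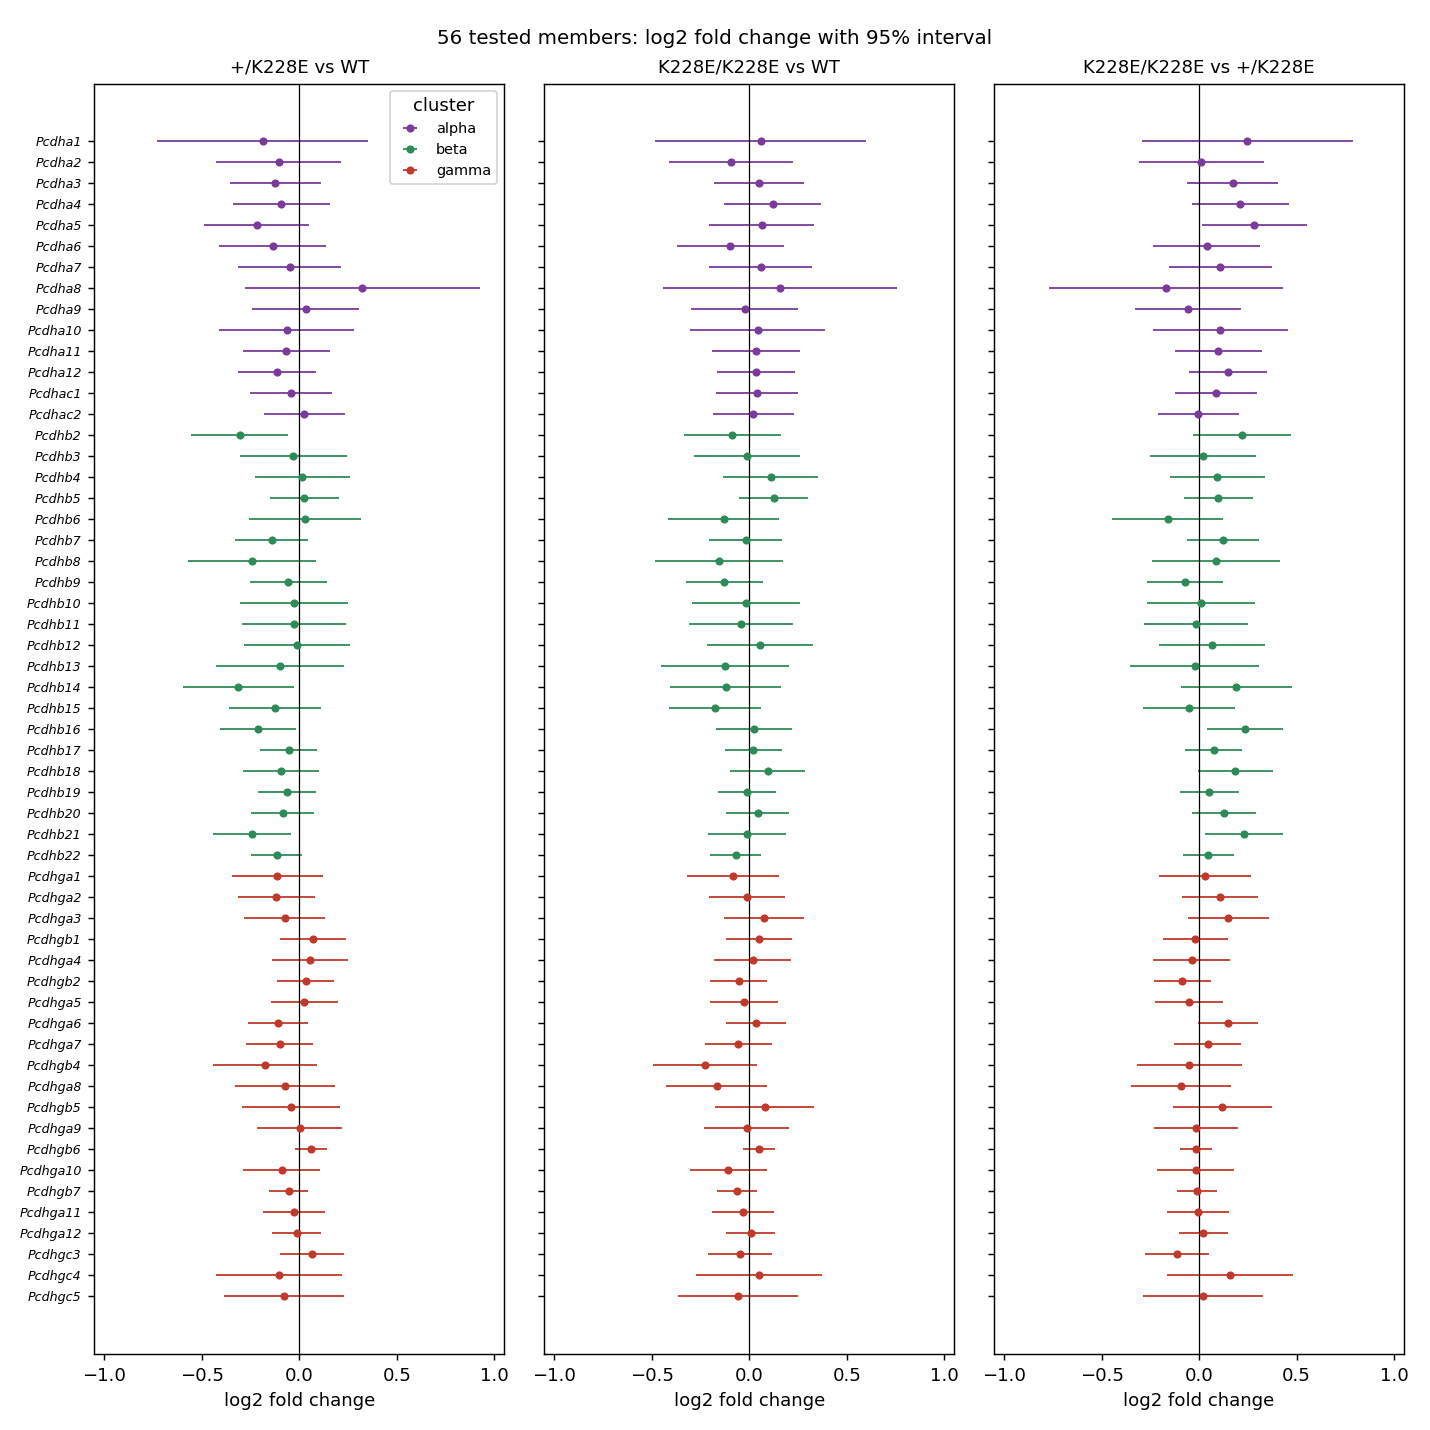
Log2 fold change (horizontal axes) with its 95% interval for the 56 tested genes, in cluster order from top to bottom, in each comparison. The intervals cross 0 for all but 4 genes in the first panel, for every gene in the second and for all but 3 in the third.

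The C-type isoforms differed between genotypes by less than the spread between embryos. Pcdhgc3 had normalized values of 5757, 6100, 6810, 5725 and 6085 in WT, 5494, 7159, 6404, 6458 and 6429 in Tbr1+/K228E, and 5990, 5293, 6750, 5332 and 6220 in Tbr1K228E/K228E embryos. Its log2 fold change against WT was 0.07 ± 0.08 (SE) in heterozygous and -0.05 ± 0.08 in homozygous embryos. Pcdhgc4 had values of 3077, 2679, 2356, 4107 and 2893 in WT, 3530, 2026, 2835, 2679 and 2956 in Tbr1+/K228E, and 3359, 3383, 2581, 3467 and 2714 in Tbr1K228E/K228E embryos. Its differences from WT were -0.10 ± 0.15 and 0.05 ± 0.15. The embryos with much Pcdhgc3, such as Tbr1+/K228E replicate 2 and WT replicate 3, had little Pcdhgc4, and WT replicate 4 and Tbr1K228E/K228E replicate 2 had the opposite.

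Pcdhac2 ranged from 1185 to 1661 in WT, 1346 to 1605 in Tbr1+/K228E and 1244 to 1582 in Tbr1K228E/K228E embryos, with differences from WT of 0.03 ± 0.10 and 0.02 ± 0.10 (SE). Pcdhac1 ranged from 159 to 207, 146 to 199 and 175 to 204, and differed from WT by -0.04 ± 0.10 and 0.04 ± 0.10. Pcdhgc5 ranged from 362 to 585, 373 to 416 and 298 to 490, and differed by -0.08 ± 0.14 and -0.06 ± 0.14. For all 5 C-type isoforms the 95% interval was within a 1.5-fold change in each comparison, as it was for 12388 to 12561 of all 16507 genes tested.

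The levels of Pcdhgc3 and Pcdhgc4 moved with the forebrain marker level. A marker level is the mean log2(value + 1) of the genes of a list. Whether marker levels follow the regional or cellular makeup of the samples was not tested. Relations with marker levels were examined after the values had been seen, for the 5 C-type isoforms and the forebrain, pan-neuronal and progenitor lists. These were 15 relations in all over 15 embryos. Pcdhgc3 was higher where forebrain genes were higher (Pearson r = 0.80, permutation p = 0.00032, adjusted over the 15 relations 0.0024, Spearman rho = 0.89, permutation p = 4e-05, adjusted 0.0003). Without the 2 embryos farthest from the median of the forebrain level r was 0.86, with genotype means removed it was 0.80, and it was 0.95 in females and 0.54 in males. Pcdhgc4 was lower where forebrain genes were higher (r = -0.88 and rho = -0.92, each with a permutation p of 1e-05, the smallest the permutations can give, and 0.00015 after adjustment). The value of r was -0.86 without the 2 farthest embryos, -0.88 with genotype means removed, -0.85 in females and -0.92 in males.

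Pcdhgc4 was also related to the pan-neuronal level (r = 0.70, permutation p = 0.00397, adjusted 0.0198), but the rank correlation was 0.53 (permutation p = 0.0456, adjusted 0.0978) and r was 0.38 without the 2 farthest embryos, so this relation rested on those embryos. For Pcdhac2 the relations with the pan-neuronal level (r = 0.61, permutation p = 0.0175, adjusted 0.0524) and with the progenitor level (r = -0.58, permutation p = 0.0251, adjusted 0.0537) did not pass after adjustment. The progenitor level was related to Pcdhgc3 with r = 0.61 (permutation p = 0.0170, adjusted 0.0524) and to Pcdhgc4 with r = -0.58 (permutation p = 0.0241, adjusted 0.0537), and neither passed after adjustment. Pcdhac1 and Pcdhgc5 had no relation past the adjusted threshold, with r between -0.29 and 0.49. Of all tested genes, 7.35% had an r of 0.7 or more with the forebrain level and 7.83% an r of -0.7 or less. The shares of genes as far out as Pcdhgc3 and Pcdhgc4 were not computed.

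**Figure D5:**
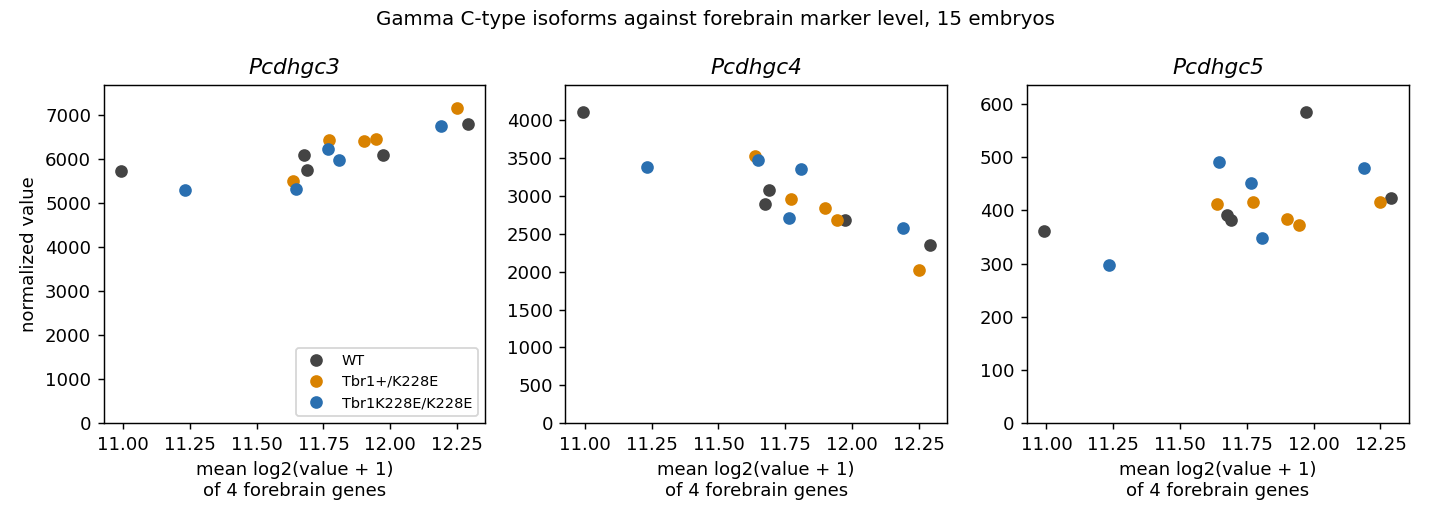
Normalized value of Pcdhgc3, Pcdhgc4 and Pcdhgc5 (vertical axes from 0) against the mean log2(value + 1) of 4 forebrain genes (horizontal axes) in 15 embryos coloured by genotype. Pcdhgc3 rose and Pcdhgc4 fell from left to right in mixed genotypes, and Pcdhgc5 was scattered.

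The alternate isoforms are given here as a description, with no test. All 21 tested beta genes had a negative r with the forebrain level (median -0.49), against 51.5% of all tested genes. With the pan-neuronal level 20 of 21 had a positive r (median 0.52), while 51.6% of all tested genes had a negative one. The beta genes also moved with each other, as given below, so they are not separate observations. Of the 12 alternate alpha genes, 9 were negatively related to the forebrain level (median -0.55) and 11 positively to the pan-neuronal level (median 0.66). The one alternate alpha gene with a negative pan-neuronal r was Pcdha8, the alpha gene with the lowest level, with r = -0.55 for the pan-neuronal and 0.73 for the progenitor level. The gamma A and gamma B genes were more evenly divided, with 11 of 18 negative for the forebrain level and a median of -0.03. Pcdha3 had the highest pan-neuronal r of all members, at 0.85. WT replicate 4, the embryo with the lowest forebrain level and a Hox sum of 3285, held the highest value of 18 of the 56 tested members. Tbr1+/K228E replicate 2, with the highest forebrain sum, 29768, and a Hox sum of 0, held the lowest value of 15 members, 9 of them beta genes. The shares of all tested genes with their highest or lowest value in these embryos were not computed. These counts therefore do not set the members apart from other genes. The 4 members at an unadjusted p under 0.05 in heterozygous against WT embryos became 2 with the forebrain level as a covariate and 2 with only the embryos with a Hox sum under 100.

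Members of a cluster also moved together across embryos once genotype means were removed. Pairs of beta genes had a median r of 0.37, and 90.5% of the 210 pairs were positive, against a median of -0.01 and 49.5% over all pairs of tested genes. Pairs of alternate alpha genes had a median of 0.32, alpha with beta genes 0.29, and pairs of gamma A and B genes 0.15, whereas beta with gamma A and B genes had a median of -0.02. Genes next to each other had a median of 0.49 in the beta cluster and 0.38 in the gamma cluster, against 0.37 and 0.14 for pairs farther apart. In the alpha cluster the order was the other way, at 0.17 for neighbours and 0.34 for the rest. The lowest pairs were Pcdhgc3 with Pcdhgc4, at -0.85, and Pcdha8 with Pcdha9, at -0.85. In the alpha and gamma clusters the division of reads from shared exons among genes can bear on these values, while among the beta genes only Pcdhb21 and Pcdhb22 have such bases. Shared bases were counted by genomic position. Whether reads that match several beta genes by sequence bear on the beta values was not tested.

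No gene of the lists that act on or with clustered protocadherins passed the adjusted test. None of the 11 genes of CTCF and cohesin, which select the promoters, and none of the 10 genes of DNA methylation and silencing had an unadjusted p under 0.05 in any comparison. Their log2 fold changes stayed between -0.07 and 0.09 for CTCF and cohesin and between -0.17 and 0.10 for methylation and silencing. Of the 19 genes coding for binding and signalling partners, such as focal adhesion kinases, the WAVE complex and Axin1, 2 had an unadjusted p under 0.05. In each comparison of homozygous embryos 1 of the 19 was higher and 1 lower by this threshold, beside 1.48% and 1.76% of all genes against WT and 1.71% and 1.58% against heterozygous embryos. In heterozygous against WT embryos there was none, and the list ran from -0.41 for Ret, a receptor kinase, to 0.25 for Ptk2b. Wasf1, a subunit of the WAVE complex that drives actin branching, was 0.15 ± 0.05 (SE) in homozygous against WT and 0.13 ± 0.05 against heterozygous embryos (adjusted p = 1.000 and 0.996). Ptk2b, a kinase bound by protocadherin tails, was -0.69 ± 0.28 and -0.94 ± 0.28 in the same comparisons, with unadjusted p of 0.0251 and 0.00391 and adjusted p of 1.000 and 0.798.

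No protocadherin outside the clusters passed the adjusted test either. Of these 10 genes 9 were lower in heterozygous than in WT embryos, with a median of -0.09, and all 10 were higher in homozygous than in heterozygous embryos, with a median of 0.10, while the median of homozygous against WT was 0.01. Of all genes, 51.2% were lower in heterozygous than in WT embryos and 49.8% were lower in homozygous than in heterozygous embryos. Both comparisons use the same heterozygous embryos and are not separate observations. Pcdh8, an activity-regulated delta protocadherin, was the single one below the unadjusted threshold, at 0.14 ± 0.06 in homozygous against heterozygous embryos (limma, adjusted p = 0.996).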

How the data were processed

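RNA-Seq libraries were made from the brains of 15 embryos with the TruSeq RNA Sample Prep Kit v2 and sequenced as paired-end reads on an Illumina HiSeq instrument. Per the submitters' processing notes and the methods, the authors quantified transcripts with Salmon 0.11.2 against GRCm38, summed them to genes with tximport and normalized with DESeq2 1.22.2 in R 3.5.3. The annotation release is not given in the sources used here. The deposited signal is 1 normalized gene count per embryo. Since these values are no longer whole reads, no count model was used.

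Gene IDs were matched to GENCODE M21 (19469 of 19475) and RefSeq. The 16507 genes whose average over the embryos reached 5 were tested on log2(value + 1) with limma 3.58.1 in R 4.3.3, using eBayes with a mean trend, 1 fit over all 15 embryos with no covariate, and Benjamini-Hochberg adjustment over all genes. Folds on this scale understate changes of low genes. The fit was first tested on simulated data. Single genes were also compared by exact permutation of 5 against 5 embryos, which cannot go below 0.00794. Correlations used 100000 permutations. Libraries of a genotype correlated at 0.971 to 0.988 and none were identical. The labels give sex and genotype, not litter or batch.

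Named genes were the members past the adjusted test or without overlap, the 5 smallest p per comparison, the C-type isoforms, the 2 highest and 2 lowest per length in each cluster in WT, and list genes with unadjusted p under 0.05. Pcdhga11, Pcdhgb6, Pcdhb17, Pcdha3, Pcdha9 and Pcdha12 were named after their values were seen. Some genes of the forebrain list are not reported here and were left out of its level. Members and gene lists were chosen with earlier results of these data known. Alternatives tried were another pseudocount, filter, scaling, sex or the replicate number in the fit, single genotype pairs and leaving out each embryo, with the forebrain covariate and the exclusion of embryos with Hox sums of 100 or more added after seeing the data.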

Additional observations from a re-analysis of the deposited data

Results flagged for a closer look

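In 6 of 78 groups of 5 embryos examined, for the named genes and the cluster sums, 1 embryo stood apart from the other 4 by a gap above 0.71 of the group's range. Chance gives about 1 in 20. Pcdhb16 was at 265 in Tbr1+/K228E replicate 5, against 328 to 348 in the other heterozygous embryos. Pcdhac1 was at 204 in Tbr1K228E/K228E replicate 2, against 175 to 182. Pcdhac2 was at 1605 in Tbr1+/K228E replicate 4, against 1346 to 1421. Pcdhgc5 was at 585 in WT replicate 2, against 362 to 423. Pcdhb1, near the limit of detection, was at 2.18 in WT replicate 3, against 0.911 to 1.19. The summed beta level was 6945 in WT replicate 4, against 6085 to 6240 in the other WT embryos, and this embryo also had the lowest forebrain sum of the 15. No explanation was tested.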

How the results depend on the processing

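No member passed the adjusted test in any comparison under any alternative run, with limma throughout. The count of members at an unadjusted p under 0.05 depended on the setting, and the cause was not tested. For Tbr1+/K228E against WT it was 4, and became 1 after quantile normalization, 2 with the forebrain level as a covariate and 2 with only the embryos with a Hox sum under 100. For Tbr1K228E/K228E against WT it was 0, and became 1 with sex as a covariate and 1 with the embryos of low Hox sum. For the mutants against each other it was 3, and became 6 with the embryos of low Hox sum. With 1 embryo left out the counts ran from 2 to 5, 0 to 3 and 1 to 5, and the count of members without overlap, 0 with all embryos, from 0 to 1, 0 to 1 and 0 to 3. The homozygous count against WT was 3 without Tbr1K228E/K228E replicate 4 and 1 without WT replicate 2 or WT replicate 4.

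The replicate numbers were not treated as pairs in the main fit. Deviations of same-numbered embryos correlated at -0.21 to 0.22 in heterozygous against WT embryos and -0.23 to 0.35 between the mutants. In homozygous against WT embryos the range was 0.02 to 0.51, with a mean of 0.24 against -0.06 for other pairs, so some likeness by number is not excluded there. Sex follows the replicate number in every genotype, and its part was not tested. An embryo correlated best with its own number in 1, 2 and 2 of 5 cases. With the replicate number as a block the counts were 7, 1 and 5.

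Single-gene differences were followed across settings only for the C-type isoforms and the members with the smallest p in each comparison. Among these, the differences that changed sign were those of C-type isoforms lying near 0. The remaining members, some of them also near 0, were not followed, so a change of sign in them was not tested. Some cluster medians and summed levels near 0 also changed sign. With 1 embryo left out, the median in homozygous against WT embryos ran from -0.063 to 0.016 for beta and -0.047 to 0.021 for gamma, and the log2 ratio of summed levels from -0.036 to 0.087 for alpha, -0.054 to 0.023 for beta and -0.031 to 0.010 for gamma. The gamma median in homozygous against heterozygous embryos ran from -0.023 to 0.034 and its summed level from -0.013 to 0.028, and the gamma sum in heterozygous against WT embryos from -0.032 to 0.0023. With the embryos of low Hox sum, Pcdhac2 was -0.064 in heterozygous against WT and 0.067 in homozygous against heterozygous embryos, Pcdhac1 was -0.046 in homozygous against WT and -0.017 against heterozygous embryos, and Pcdhgc5 was 0.22 in homozygous against WT embryos. With the forebrain covariate Pcdhgc4 was 0.00825 in heterozygous against WT embryos. With 1 embryo left out, the heterozygous difference from WT ran from -0.091 to 0.020 for Pcdhac1, -0.034 to 0.088 for Pcdhac2, -0.19 to 0.012 for Pcdhgc4 and -0.13 to 0.040 for Pcdhgc5. The homozygous difference from WT ran from -0.0014 to 0.092 for Pcdhac1, -0.038 to 0.083 for Pcdhac2, -0.032 to 0.17 for Pcdhgc4 and -0.13 to 0.061 for Pcdhgc5. The difference between the mutants ran from -0.043 to 0.044 for Pcdhac2 and -0.047 to 0.13 for Pcdhgc5. Upper quartile scaling moved the median of all genes by at most 0.04.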
